A study of Mus musculus with 10 samples.

Results

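The potassium channel genes of cardiac repolarisation, 9 of the 23337 genes in the deposited count table, were followed in heart muscle cells in which Actn2, the gene of alpha-actinin-2, was targeted. They were found by gene symbol and are Kcnd2, Kcnd3, Kcnip2, Kcna5, Kcnq1, Kcnh2, Kcnj2, Kcnj3 and Kcnj11. All 9 were in the table and all 9 passed the filter on low counts. Both groups consisted of mice injected on postnatal day 1 with AAV9-cTNT-Cre, an adeno-associated virus that expresses Cre recombinase from the cardiac troponin T promoter, which is active in cardiomyocytes. Knockout animals carried 2 floxed alleles of Actn2 (genotype Actn2-FF) and heterozygotes carried 1 (Actn2-F+), with 5 animals in each group. The heterozygotes, which received the virus too and also lose an allele in the cells it reaches, were the controls. On postnatal day 14 cardiomyocytes were released by collagenase perfusion and sorted by fluorescence, and their poly(A) RNA was sequenced.

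A cardiomyocyte is depolarised by sodium and calcium currents and returns to rest through potassium channels, each of which opens in its own phase of the action potential. In mouse ventricle the fast transient outward current, carried by Kv4 pores with the calcium-binding partner KChIP2, is known to dominate early repolarisation in the adult and to build up after birth. Delayed rectifiers act later, inward rectifiers hold the resting potential, and channels gated by G proteins or by ATP tie repolarisation to vagal tone and to metabolism. Alpha-actinin-2, best known as the crosslinker of actin at the Z-line, has also been reported to bind the channel proteins Kv1.5 and SK2, products of Kcna5 and Kcnn2.

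Total counts per sample ran from 8086656 to 25237696. The smallest level the depth can show (3 counts, counting error alone) was thus 0.119 to 0.371 per 1000000 total counts, before TMM scaling. Gene levels are given in CPM (counts per 1000000 counts of the library, scaled by TMM). The targeted gene Actn2 lay at 1145 to 1286 CPM in the knockouts and at 2677 to 3474 CPM in the heterozygotes (log2 fold change -1.39, SE 0.0910, edgeR adjusted p 3.48e-07). The 10 defining cardiomyocyte markers summed to 114100 to 145100 CPM in the heterozygotes and 109800 to 136600 CPM in the knockouts. Of these 10, 1 was called higher and 2 lower (edgeR adjusted p below 0.05), where 18.9% of all tested genes were called in either direction. Endothelial markers, 12 genes, summed to 762 to 1356 CPM against 484 to 864 CPM in the knockouts, and 2 of the 12 were called lower (edgeR adjusted p below 0.05), where 8.64% of all tested genes were. All 12 had a negative log2 fold change (median -0.46), and 10 had an unadjusted p below 0.05. Leukocyte markers (9 genes) summed to 13.2 to 36.5 against 8.54 to 11.2 CPM, with no overlap. The 4 of them that were tested all had a negative log2 fold change (median -0.87). Of these, 1 was called lower, where 8.64% of all tested genes were. Fibroblast markers (10 genes) summed to 336 to 552 against 323 to 655 CPM. The 8 smooth-muscle and pericyte markers summed to 189 to 318 CPM against 242 to 333 CPM, though 5 of the 8 had a negative log2 fold change (median -0.28). The 10 markers of Schwann cells and neurons summed to 13.5 to 26.9 CPM against 29.3 to 34.2 CPM. Of those 10, 3 were tested, and 2 of the 3 had a negative log2 fold change (median -0.02). In each of these 2 lists 1 gene was called higher, where 10.2% of all tested genes were. Conduction-system markers (11 genes) reached 47.4 to 127 CPM against 62.2 to 73.1 CPM, and Isl1 among them had no count in any sample. The 12 atrial markers summed to 115 to 410 CPM in the heterozygotes and to 984 to 2396 CPM in the knockouts, with no overlap. In the knockouts most of that sum was Nppa, the natriuretic peptide gene that ventricular cells also express under stress. It was at 50.5 to 225 CPM in the heterozygotes against 919 to 2262 CPM in the knockouts (log2 fold change 3.99, edgeR adjusted p 7.11e-06). The 7 ventricular markers summed to 16480 to 19470 CPM against 17490 to 22080 CPM. Atrial markers other than Nppa (11 genes) were at 64.0 to 185 CPM in the heterozygotes and at 65.2 to 134 CPM in 4 knockouts, with 469 CPM in knockout 5. In these bulk samples, fewer cells of a type and less RNA per cell cannot be told apart.

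The comparison of genotypes asked which of these channel genes differ in RNA level when both Actn2 alleles are targeted. Kcnd2 and Kcnip2, the pore and the partner of the fast transient outward current, were lower in every knockout than in any heterozygote. The other 7 genes did not pass the test. Thus 2 of 9 genes were called, both lower, at an edgeR adjusted p below 0.05, where 18.9% of the 11870 tested genes were called in either direction, 8.64% lower and 10.2% higher. The 2 of 9 whose groups did not overlap stand beside 14.7% of all tested genes. A share of 2 in 9 is near the 18.9% and the 14.7%, so the number of calls sets the 9 genes apart in neither respect. It is larger than the 8.64% called lower, a difference that was not tested. The median log2 fold change of the 9 genes was -0.58, and that of the 7 not called was -0.37, against 0.0023 for all tested genes. The fall of Kcnd2 was known when the 9 genes were chosen, so these medians are a description. Of the calls over all genes, 54.3% were higher in the knockout with TMM scaling and 68.9% with scaling by library totals alone.

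**Figure D1:**
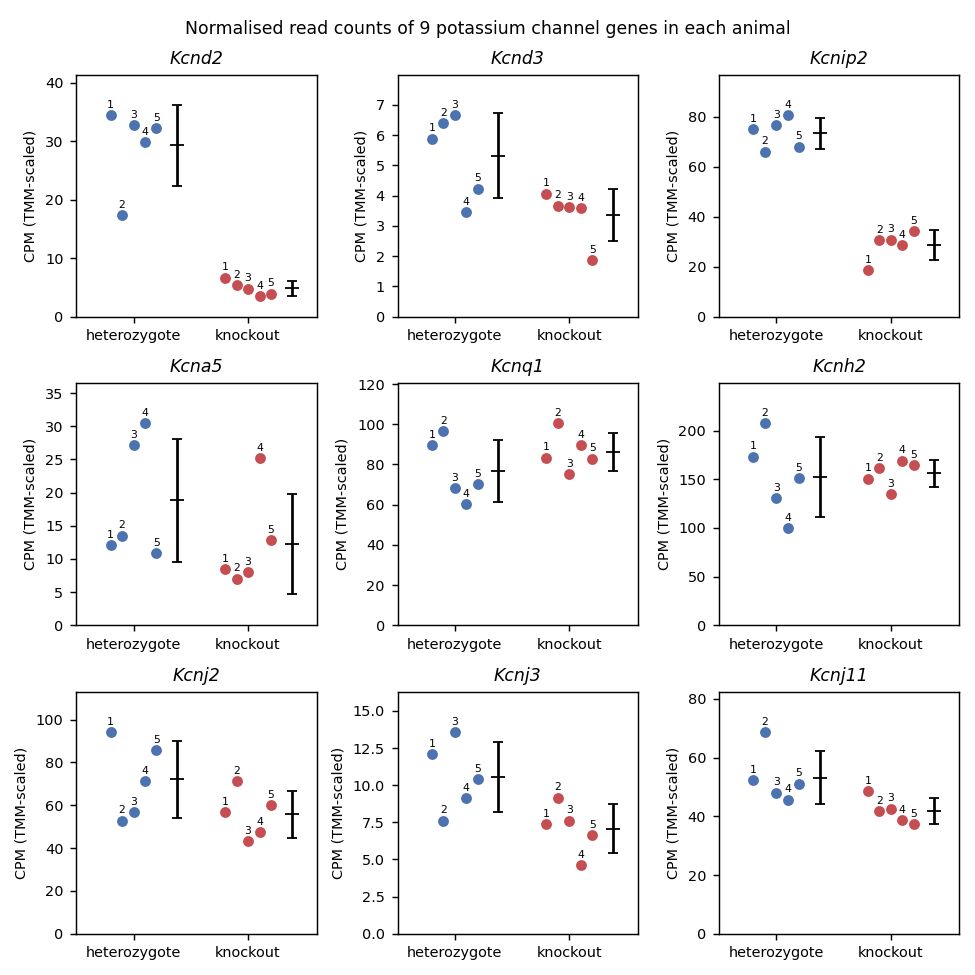
Normalised read count in CPM (vertical axes, from 0) of each of the 9 genes in the 5 heterozygotes and 5 knockouts. Points are animals, labelled by replicate number, and the bar beside them is the mean with its SD. Kcnd2 and Kcnip2 are the panels in which the groups do not overlap.

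The sequences 250 bases upstream of the RefSeq transcription starts are shown for these 2 genes, since they are the pair that fell together (build GRCm38.p6, 5′ to 3′ on the strand of the gene). Kcnd2 is the plus strand of chr6:21215096-21215345 and Kcnip2 the minus strand of chr19:45816064-45816313. Capitals mark matches on either strand to GGGCGG (the GC box) or CCCCACCC (a CACC box, the kind of site bound by Krüppel-like factors).
Kcnd2: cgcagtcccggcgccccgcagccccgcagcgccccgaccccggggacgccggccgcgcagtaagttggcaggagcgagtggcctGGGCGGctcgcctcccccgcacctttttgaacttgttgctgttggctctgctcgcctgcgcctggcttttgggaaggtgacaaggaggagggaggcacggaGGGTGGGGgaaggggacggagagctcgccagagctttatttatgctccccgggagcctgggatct
Kcnip2: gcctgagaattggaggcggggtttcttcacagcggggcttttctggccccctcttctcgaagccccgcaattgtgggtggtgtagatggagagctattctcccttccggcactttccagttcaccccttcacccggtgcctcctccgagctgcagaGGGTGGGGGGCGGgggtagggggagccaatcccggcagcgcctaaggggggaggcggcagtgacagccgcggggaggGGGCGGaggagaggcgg

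Both windows are rich in G and C, at 68.8% for Kcnd2 and 66.8% for Kcnip2, where the median of all promoters was 52.4%. The Kcnd2 window holds 1 GGGCGG and 1 CCCCACCC, and that of Kcnip2 holds 2 and 1, of which 1 pair overlaps by a base. GGGCGG was present in 32.7% and CCCCACCC in 9.05% of 32851 promoter windows of the same length. Neither window holds ACANNTGT, the palindrome bound by Iroquois proteins (6.31% of windows), or TATAAA (12.4%). The table has promoters for 7 of the 9 genes and none for Kcnq1 and Kcnj11. The CCCCACCC letters are also upstream of Kcnd3, which was not called, and are not in the windows of Kcna5, Kcnh2, Kcnj2 and Kcnj3. GGGCGG is also in the windows of the uncalled genes Kcnh2 (3 matches, 73.6% G and C) and Kcnj2 (2 matches, 65.6%). Neither it nor a high share of G and C thus marks the 2 called genes. The Kcnh2 window belongs to a start at base 24329591, which lies inside the counted gene (24319589 to 24351604, minus strand). These matches describe letters in a window and were chosen after the values were seen.

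Kcnd2 encodes Kv4.2, the main pore of the fast transient outward current in mouse ventricle, on chromosome 6 (mm10, bases 21216109 to 21729805, plus strand). Its level was 34.5, 17.3, 32.7, 29.9 and 32.2 CPM in heterozygotes 1 to 5. In knockouts 1 to 5 it was 6.66, 5.42, 4.78, 3.49 and 3.96 CPM. The lowest heterozygote, replicate 2, still lay far above the highest knockout, replicate 1. The means were 29.3 ± 6.90 and 4.86 ± 1.25 CPM (SD, n = 5), and the log2 fold change was -2.60 (SE 0.212, 95% interval -3.05 to -2.15, edgeR adjusted p 2.00e-06). By the fit, knockout cells held 16.5% of the heterozygote level. Among the 11870 tested genes 16 had a more negative log2 fold change. That Kcnd2 was among the largest falls was known when the 9 genes were chosen, so its rank is a description.

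Kcnip2 encodes KChIP2, which binds Kv4 pores, brings them to the cell surface and shapes their gating. It lies on chromosome 19 at 45793670 to 45815803. The heterozygotes had 74.9, 66.1, 76.8, 80.7 and 68.0 CPM and the knockouts 18.6, 30.8, 30.8, 28.5 and 34.3 CPM. No knockout came near the heterozygote range, and knockout 1 was the lowest. The means were 73.3 ± 6.12 and 28.6 ± 5.94 CPM (SD, n = 5). The fitted log2 fold change was -1.35 (SE 0.138, 95% interval -1.65 to -1.06, edgeR adjusted p 1.62e-05), or 39.2% of the heterozygote level. The gene model used for counting has 813 bases of exon, 23.4% of the exon bases that GENCODE M21 gives this gene, so the counts cover part of the transcript.

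Both calls held whichever of the 10 animals was left out, and under 12 further settings, with log2 fold changes of -2.74 to -2.43 for Kcnd2 and -1.44 to -1.23 for Kcnip2. With the endothelial marker level as a covariate the values were -2.58 (edgeR adjusted p 9.16e-05) and -1.34 (0.000659).

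Kcnd3 encodes Kv4.3, the paralog that joins Kv4.2 in the same channels and is known to be the minor partner in mouse ventricle. Its levels were low: 5.88, 6.39, 6.66, 3.44 and 4.23 CPM in heterozygotes 1 to 5 and 4.06, 3.67, 3.61, 3.59 and 1.87 CPM in knockouts 1 to 5. Heterozygote 4 lay inside the knockout range and knockout 5 far below the rest. These levels rest on 31 to 140 counts per heterozygote and 33 to 48 per knockout. The log2 fold change was -0.68 (SE 0.255, 95% interval -1.23 to -0.13) and missed the threshold with edgeR (adjusted p 0.0797). It passed with DESeq2 (adjusted p 0.0497) and in the edgeR fit without heterozygote 4 (0.0393). Of its exon bases 165 are shared with 1700095B22Rik, and reads there were lost to both genes.

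The ratio between the Kv4 genes was lower in the knockouts. Per length, Kcnd2 exceeded Kcnd3 by 9.32, 4.31, 7.80, 13.8 and 12.1 times in heterozygotes 1 to 5, and by 2.61, 2.35, 2.11, 1.54 and 3.37 times in knockouts 1 to 5. Every knockout ratio lay below every heterozygote ratio, and Kcnd2 remained the more abundant of the 2 in all 10 animals. The mean log2 ratio fell from 3.13 ± 0.66 to 1.21 ± 0.41 (SD, n = 5), a difference of -1.92 (two-sided exact permutation test over 252 arrangements, p = 0.00794, which is the smallest possible here). The fall of Kcnd2 was known when this ratio was chosen, so the p is no independent support for it. The ratio of Kcnip2 to Kcnd2 per length was 14.7 ± 3.92 in the heterozygotes and 35.5 ± 13.04 in the knockouts (SD, n = 5). Those ranges overlapped, since knockout 1 had 15.6 and heterozygote 2 had 21.3, and this second ratio was not tested.

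**Figure D2:**
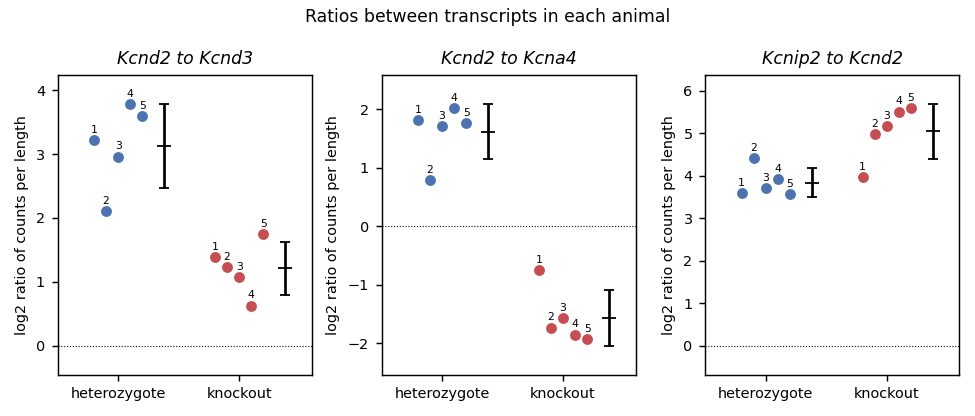
Log2 ratios of counts per exon length between pairs of transcripts in each animal, labelled by replicate number, with mean and SD beside the points and a dotted line where both are equal. Kcnd2 lies above Kcna4 in the 5 heterozygotes and below it in the 5 knockouts, and stays above Kcnd3 in all 10.

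Kcna4, from the list of other voltage-gated pores, encodes Kv1.4, which carries the slow transient outward current and is known from the neonatal ventricle and the septum. Its level was 10.5, 10.7, 10.6, 7.88 and 10.1 CPM in heterozygotes 1 to 5 and 11.97, 19.3, 15.1, 13.4 and 16.1 CPM in knockouts 1 to 5. The groups did not overlap, and Kcna4 rose by a log2 fold change of 0.61 (SE 0.153, 95% interval 0.28 to 0.94, edgeR adjusted p 0.0127). That call was lost with the endothelial covariate (log2 fold change 0.45, adjusted p 0.173) and in a fit of the 7 animals with counts of Y-linked genes, the males (0.63, adjusted p 0.0723). Per length, the ratio of Kcnd2 to Kcna4 went from 3.19 ± 0.867 in the heterozygotes to 0.354 ± 0.137 in the knockouts (SD, n = 5), and the order of the 2 genes differed between the groups in every animal. This pair was chosen after its values were seen and the ratio was not tested.

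Kcna5 encodes Kv1.5, the pore of an ultrarapid delayed rectifier and, in mouse ventricle, of a slowly inactivating outward current. Its level was 12.1, 13.5, 27.2, 30.4 and 10.9 CPM in heterozygotes 1 to 5 and 8.43, 7.03, 8.00, 25.1 and 12.8 CPM in knockouts 1 to 5. Most of the spread lay within the groups, where heterozygotes 3 and 4 and knockout 4 stood above their fellows. The log2 fold change was -0.61 (SE 0.370) with a 95% interval of -1.40 to 0.19, and did not pass with edgeR (adjusted p 0.282). Without knockout 4 it was -1.03 (adjusted p 0.0425). The same 3 animals had the highest sums of the 12 endothelial markers, 967 and 1356 CPM in heterozygotes 3 and 4 and 864 CPM in knockout 4, against at most 777 CPM in the other 7. With that marker level as a covariate the log2 fold change of Kcna5 was 0.18 (adjusted p 0.830). All 12 markers had a negative log2 fold change, so this covariate differs between the genotypes too. Whether endothelial cells have a part in the Kcna5 values was not tested.

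**Figure D3:**
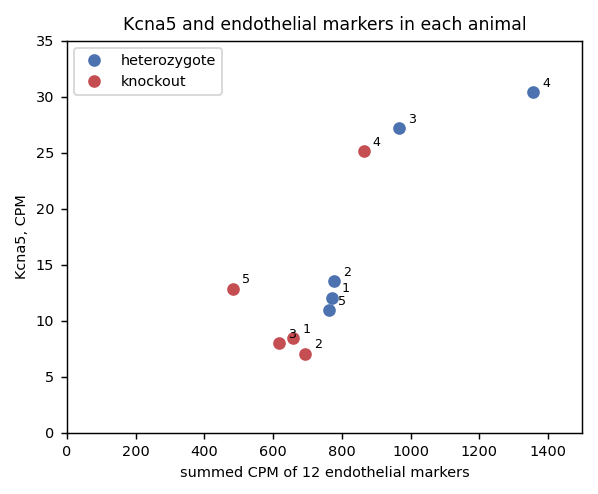
Kcna5 level in CPM (vertical axis) against the summed CPM of 12 endothelial markers (horizontal axis) in each animal, labelled by replicate number. The 3 animals above 25 CPM of Kcna5 are those with the highest marker sums, 864 to 1356 CPM.

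The delayed rectifier genes Kcnh2 and Kcnq1 were the most abundant pores of the 9 per length. Kcnh2 encodes the pore of the rapid component and Kcnq1, with its accessory subunit Kcne1, that of the slow component, currents that are prominent in the fetal and neonatal mouse heart. Kcnh2 was at 173, 208, 131, 100 and 151 CPM in heterozygotes 1 to 5 and at 151, 162, 135, 169 and 165 CPM in knockouts 1 to 5. All knockout values lay inside the heterozygote range, and the log2 fold change was 0.03 (SE 0.157, 95% interval -0.30 to 0.37, edgeR adjusted p 0.912). Its sign turned with the endothelial covariate, in the 7 animals with Y-linked counts, and without heterozygote 3 or 4. Kcnq1 was at 60.3 to 96.5 CPM (median 70.1) in the heterozygotes and 75.3 to 100.4 CPM in the knockouts. Its log2 fold change was 0.16 (SE 0.130, 95% interval -0.11 to 0.44, edgeR adjusted p 0.418), and 121 of its exon bases are shared with the antisense transcript Kcnq1ot1. Strand was not used in the counting, so reads in those bases were lost to both. Kcne1 did not pass either, at 303 ± 77.3 and 309 ± 57.4 CPM (SD, n = 5). Its log2 fold change of 0.03 (adjusted p 0.933, SE 0.166) turned negative with upper-quartile scaling, with the endothelial covariate and in the 7 animals with Y-linked counts.

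The 3 inward rectifier genes were each lower in the mean of the knockouts and none passed the test. Kcnj2 encodes Kir2.1, the main pore of the current that holds the resting potential. It was at 94.3, 52.8, 56.6, 71.2 and 85.6 CPM in heterozygotes 1 to 5 and at 56.6, 71.3, 43.2, 47.6 and 60.0 CPM in knockouts 1 to 5. Only 2 knockouts lay below all heterozygotes, and the log2 fold change was -0.37 (SE 0.171, 95% interval -0.74 to -0.01, edgeR adjusted p 0.147). It passed with voom (adjusted p 0.0375). Its relative Kcnj12, which encodes Kir2.2, was at 50.3 ± 9.05 and 56.1 ± 7.90 CPM (SD, n = 5; log2 fold change 0.16, adjusted p 0.457).

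Kcnj3 encodes Kir3.1, a subunit of the channel opened by acetylcholine through G proteins, which is best known from atrium and nodes. The heterozygotes had 12.1, 7.613, 13.6, 9.10 and 10.4 CPM and the knockouts 7.39, 9.17, 7.609, 4.62 and 6.62 CPM. Of the 5 knockouts 4 lay below all heterozygotes, the exception being knockout 2. The log2 fold change was -0.58 (SE 0.203, 95% interval -1.01 to -0.14) and missed the threshold with edgeR (adjusted p 0.0617). It passed with DESeq2 (adjusted p 0.0292), with voom (0.0144), without heterozygote 2 (0.0331) and without knockout 2 (0.0413). The counting model holds 32.2% of the exon bases of GENCODE M21 for this gene. Knockout 5, in which the atrial markers other than Nppa summed to 469 CPM, had 6.62 CPM of Kcnj3, inside the range of the other knockouts. Whether atrial cells have a part in the Kcnj3 values was not tested. Kcnj5, which encodes the partner Kir3.4, was at 150.4 ± 30.1 and 169.1 ± 24.6 CPM (SD, n = 5; log2 fold change 0.17, adjusted p 0.439).

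Kcnj11 encodes Kir6.2, the pore of the channel that opens when ATP falls. Its level was 52.3, 68.8, 48.1, 45.7 and 51.2 CPM in heterozygotes 1 to 5 and 48.5, 41.8, 42.6, 38.8 and 37.2 CPM in knockouts 1 to 5. Again 4 knockouts lay below all heterozygotes, while knockout 1 fell within their range. The log2 fold change was -0.35 (SE 0.118, 95% interval -0.60 to -0.10), just outside the threshold with edgeR (adjusted p 0.0534). It passed in 6 of the 12 other settings and in 2 of the 10 fits without 1 animal, with adjusted p-values over all of them from 0.0320 to 0.151. The 6 were RLE and upper-quartile scaling, a filter at a mean of 5 CPM, DESeq2, voom and the Y-linked covariate, and the 2 were those without heterozygote 4 and without knockout 1. Abcc8, which encodes the sulfonylurea receptor SUR1 that pairs with Kir6.2 in mouse atrium, was lower with no overlap, at 116 ± 12.1 and 73.0 ± 19.2 CPM (SD, n = 5). The gap was narrow, with 100.5 CPM in knockout 5 and 101.3 CPM in heterozygote 5. Knockout 5 is the animal with 469 CPM of atrial markers other than Nppa. Whether atrial cells have a part in the Abcc8 values was not tested. The log2 fold change of Abcc8, -0.67 (SE 0.153), passed with an edgeR adjusted p of 0.00747, and the call held in every other fit. The ventricular receptor gene Abcc9 was at 388 ± 74.1 and 324 ± 46.7 CPM and did not pass (log2 fold change -0.26, adjusted p 0.228), except with voom (0.0431) and without heterozygote 2 (0.0276). It shares 158 exon bases with 5330439B14Rik.

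**Figure D4:**
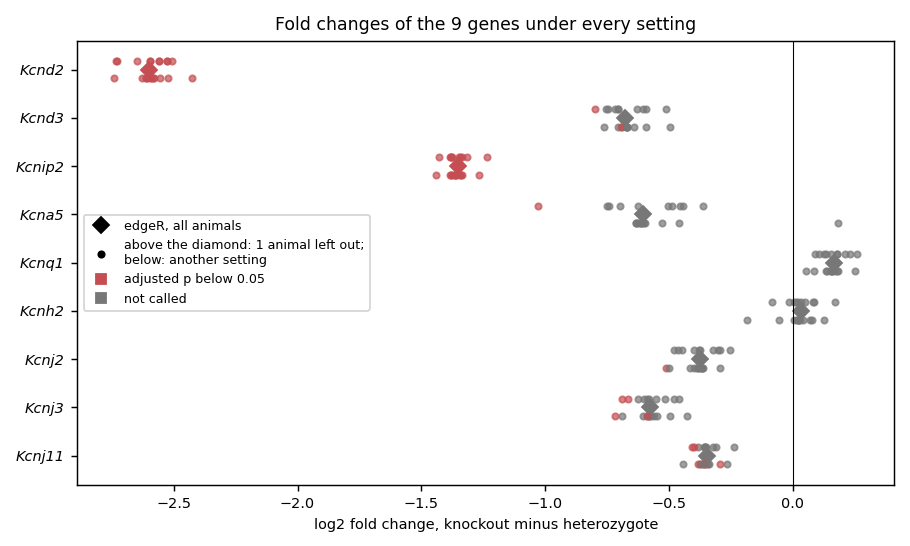
Log2 fold change, knockout minus heterozygote (horizontal axis), of the 9 genes in the edgeR fit over all animals (diamonds) and in every other fit (circles, above the diamond with 1 animal left out and below it for other settings). Red marks an adjusted p below 0.05: Kcnd2 and Kcnip2 are red in all fits, while Kcnd3, Kcna5, Kcnj2, Kcnj3 and Kcnj11 are so in some.

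The order of the 9 genes by level per length (CPM per kb of counted exon) was the following in the heterozygotes. Kcnip2 led with 90.1 ± 7.53, above the range of all others, and was followed by Kcnh2 (36.2 ± 9.68), Kcnq1 (25.4 ± 5.08), Kcnj11 (16.4 ± 2.79) and Kcnj2 (13.2 ± 3.29). Next came Kcnd2 (6.45 ± 1.52), Kcnj3 (6.29 ± 1.41) and Kcna5 (6.26 ± 3.07), which overlapped one another, and Kcnd3 was last with 0.736 ± 0.195 (SD, n = 5). Among the first 5, each neighbouring pair after Kcnip2 overlapped too. In the knockouts Kcnh2 (37.0 ± 3.24) and Kcnip2 (35.2 ± 7.31) overlapped at the top. Kcnd2, at 1.07 ± 0.275 CPM per kb, ranked eighth there, below the ranges of Kcnj3 (4.22 ± 0.988) and Kcna5 (4.09 ± 2.504) and above that of Kcnd3 (0.465 ± 0.119). Ranks 3 to 5 were held by Kcnq1, Kcnj11 and Kcnj2 in both groups. Levels per length depend on how much of each transcript the gene model covers, which is least for Kcnip2 and Kcnj3.

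The rest of the potassium channel family gives the setting of these values. Lists of 87 other pores, accessory subunits, rectifiers, receptors and two-pore or ion-activated channels had 21 tested genes, of which 1 rose and 3 fell at an edgeR adjusted p below 0.05. A share of 4 in 21 is near the 18.9% of all tested genes, so the count does not set these lists apart. Their median log2 fold change was -0.29. With the endothelial covariate Abcc8 alone was called (adjusted p 0.0156). In the 7 animals with Y-linked counts 2 genes were called. Abcc8 was lower (log2 fold change -0.81, adjusted p 0.00501), and Kcnj14, which is outside the 21 genes, was higher (2.34, 0.0227). Kcnj14 was also called higher with no filter (1.77, adjusted p 0.0299). The same held without heterozygote 2, 3 or 5 or knockout 5 (1.83 to 2.01). Kcnj14 failed the filter on low counts in the main fit. With fewer animals such a gene can pass the filter through the higher group alone, so these calls are no independent support for a rise. Kcnk3, which encodes the acid-sensitive background channel TASK-1, was lower, at 353 ± 71.5 and 241 ± 34.2 CPM (SD, n = 5). By edgeR the log2 fold change was -0.55 (adjusted p 0.0135, SE 0.141). The value stayed near this with the endothelial covariate (-0.57, SE 0.189) and in the 7 animals with Y-linked counts (-0.50, SE 0.156), but the call was lost in both (adjusted p 0.0737 and 0.0597), and 229 exon bases are shared with Gm9899. Kcnn1, which encodes the calcium-activated channel SK1, was at 8.77 ± 1.62 and 5.42 ± 1.70 CPM (log2 fold change -0.70, adjusted p 0.0424, SE 0.223). That call did not survive in 7 of the 10 fits without 1 animal, nor in 5 of the 12 further settings. Its relative Kcnn2 did not pass (log2 fold change -0.42, adjusted p 0.0864), except with the Y-linked covariate (-0.47, adjusted p 0.0465).

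Of the other voltage-gated pores 5 of 35 were tested and Kcna4 alone was called. Kcng2, which encodes a modifier subunit that joins Kv2 pores, was at 506 ± 105 and 550.3 ± 38.9 CPM (SD, n = 5; log2 fold change 0.12, edgeR adjusted p 0.555). Of the accessory subunits other than Kcnip2, 5 of 13 were tested and 0 were called with edgeR, 2 having an unadjusted p below 0.05. Other edgeR fits called 2 of them lower. Kcnab1 passed with the Y-linked covariate (log2 fold change -1.18, adjusted p 0.0496) and without knockout 3 (-1.33, 0.0494), and Kcne4 without knockout 4 (-1.61, 0.0400). Both were named after their values were seen. Among the rectifiers and receptors, where Abcc8 fell, Kcnj8 (Kir6.1) was at 24.9 ± 7.26 and 18.5 ± 6.71 CPM and did not pass (log2 fold change -0.43, adjusted p 0.262). Kcnj8 is also known from pericytes and smooth muscle, and its sign turned with the endothelial covariate (0.21).

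**Figure D5:**
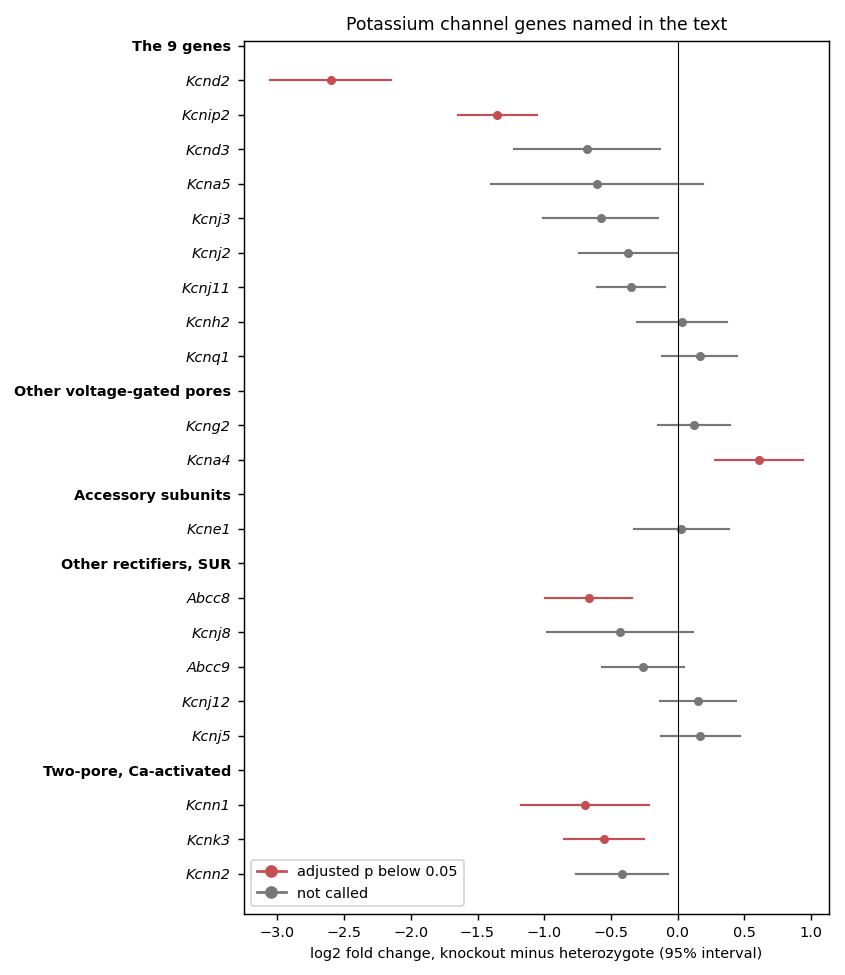
Log2 fold change, knockout minus heterozygote, with its 95% interval (horizontal axis) for the 9 genes and 11 other potassium channel genes named in the text, by list. Red marks an edgeR adjusted p below 0.05: Kcnd2 and Kcnip2 lie furthest to the left among the called genes, and Kcna4 is the called gene on the right.

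A list of transcription regulators reported to act on cardiac potassium channel genes had 22 tested members, of which 1 rose and 0 fell (4.55%, against 18.9% of all tested genes). The member called was Irx5, an Iroquois factor known in mouse as a repressor of Kcnd2 across the ventricular wall. Its level was 22.3, 33.3, 23.1, 13.5 and 32.9 CPM in heterozygotes 1 to 5 and 37.3, 37.6, 50.4, 46.0 and 45.6 CPM in knockouts 1 to 5. The groups did not overlap (log2 fold change 0.80, SE 0.196, 95% interval 0.38 to 1.22, edgeR adjusted p 0.0113), and the call was lost with the endothelial covariate (0.48, adjusted p 0.176). Whether Irx5 has a part in the Kcnd2 values was not tested.

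The other regulators did not pass. Klf15, a Krüppel-like factor known to drive Kcnip2 with the time of day, was at 44.1 ± 7.70 and 44.8 ± 20.6 CPM (SD, n = 5; log2 fold change 0.03, adjusted p 0.944 by edgeR). The heterozygotes ran from 32.1 to 52.2 CPM, and knockouts 1 to 5 had 35.5, 29.0, 37.85, 40.95 and 80.8 CPM. The near-equal means thus rest on knockout 5. Without that animal the log2 fold change of Klf15 was -0.30 (edgeR adjusted p 0.192), and its sign changed with several other settings. Irx4 (log2 fold change 0.31, adjusted p 0.0991) and Irx3 (0.23, 0.589) are relatives of Irx5. Gata4 (0.28, 0.0559) and Gata6 (0.38, 0.0605) lay near the threshold and passed in 3 and 4 of the 12 further settings, and Irx4 passed in 2. Thyroid hormone receptor genes Thra (0.09, adjusted p 0.646) and Thrb (-0.37, 0.133) did not pass. Tbx5, Tbx20, Nkx2-5, Mef2a, Mef2c, Mef2d, Nfatc3 and Rest, each averaging 20 CPM or more, had log2 fold changes between -0.06 and 0.35, with adjusted p-values of 0.123 or more.

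By the size of the root mean square difference of log2 CPM from Kcnd2 over the 10 animals, each gene set to 0 at its heterozygote mean, the nearest of 8368 genes averaging 10 CPM or more was Rtn4r (0.472). It was followed by Rxrg (0.684), Slc36a2 (0.706), Art1 (0.726) and Acta2 (0.733), where the median gene was 1.87 away. These genes encode the Nogo receptor, a retinoid X receptor, an amino acid transporter, an ADP-ribosyltransferase and smooth-muscle actin. Their log2 fold changes were -2.71, -1.79, -1.65, -1.63 and -1.82, a size that follows from choosing genes for their likeness to Kcnd2 in the same animals. Kcnip2 ranked sixteenth by this measure, at 0.959.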

How the data were processed

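Per the file headers, the authors counted reads per gene with featureCounts 1.5.1, run on 4 threads with default options, against UCSC's mm10 gene annotation archived in 2012. The deposited counts are whole and not normalised. The submitters' processing notes name STAR 2.5.3a and Subread 1.5.2, while the alignment files in the header carry another aligner's default name. Under that program's defaults strand is not used, and reads in several places or genes are not counted. The table also gives each gene's exon length. Of its 14 count columns, 10 match this series' samples and 4, matching none, were not used.

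Genes were filtered with filterByExpr (minimum count 10, total 15), scaled by TMM and compared by quasi-likelihood (edgeR 4.0.16 under R 4.3.3) across the 10 samples, with Benjamini-Hochberg adjustment over all tested genes and a threshold of 0.05. SE is the log2 fold change over the root of F, and 95% intervals use the test's residual degrees of freedom. Log2 CPM has a prior count of 1. On simulated counts for 11755 genes, of which 196 were changed, 77.6% of 2-fold and 100% of 4-fold changes were recovered and 2.79% of calls were false. In the data themselves 18.9% of tested genes were called, a far larger share, so these rates need not hold for them. Replicate pairs differed beyond counting noise (chi-square 10.8 to 37.5 per degree of freedom over 20 pairs). The labels do not say that replicates came from separate litters, so p-values measure the spread between these samples.

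The 9 genes, lists, ratios and tests were chosen with earlier results of these data known. The genes named were the 9, Actn2, list genes called or averaging 20 CPM, and the 5 nearest to Kcnd2. Values of 2 list genes are not reported here. Alternatives were RLE and upper-quartile scaling, library totals, no filter, a filter at 5 CPM, the replicate number as a block, DESeq2 1.42.0, limma 3.58.1 voom with sample weights, covariates of Y-linked, endothelial or atrial expression, and leaving out each animal. The 7 samples with Y-linked counts (4 knockout, 3 heterozygote) were an added alternative. Promoters are from RefSeq, GRCm38.p6.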

Additional observations from a re-analysis of the deposited data

Results flagged for a closer look

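Within a genotype, 46 sets of 5 values were screened for an animal whose gap to its nearest neighbour exceeded 0.71 of the range. There were 5 such sets, where chance gives about 2. Heterozygote 2 had 4.12 log2 CPM of Kcnd2, with 4.90 in the next lowest (gap 0.791), and without that animal the log2 fold change was -2.73. Knockout 5 had 0.964 log2 CPM of Kcnd3, with 1.88 in its neighbour (gap 0.841). Heterozygote 4 had 2.99 log2 CPM of Kcna4, with 3.35 in its neighbour (gap 0.826). The total of heterozygote 1 was 25237696 counts, and the second highest of its group 10309615 (gap 0.870). The atrial markers other than Nppa summed to 468.5 CPM in knockout 5 against 134.1 in the next knockout (gap 0.829).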

How the results depend on the processing

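The calls of Kcnd2 and Kcnip2 held in every fit run, and no setting called any of the 9 genes higher. The number of the 9 called was 5 with DESeq2 and 5 with voom, 2 to 4 when single animals were left out (4 without heterozygote 4), and 2 or 3 in the remaining settings. Of the other potassium channel genes 4 were called, 1 with the endothelial covariate, 2 in the animals with Y-linked counts and 3 to 6 without single animals. Over all genes 2241 were called, 1203 with the endothelial covariate and 1308 in the animals with Y-linked counts. The median log2 fold change of all genes stayed between -0.03 and 0.08. The log2 ratio of Kcnd2 to Kcnd3 changed by -2.18 to -1.76 without single animals. With sign flips within replicate numbers as the replicate block it was -1.92 (exact permutation p = 0.0625, the smallest that 32 flips can give). Same-numbered samples correlated at -0.0604 to 0.185 in their deviations from the group means and 4 of 10 samples correlated best with their own number, so the numbers were not taken to pair them. With the replicate block edgeR called 2 of the 9 genes and 4 of the other channel genes.

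Among 55 named genes, 25 kept direction and side of the threshold in every setting. Of 1208 combinations of gene and setting 36 lost a call, 32 gained one and 46 turned sign. The cause of these was not tested. With the endothelial covariate signs turned for Kcna5 (0.18), Kcnh2 (-0.18), Thra (-0.13), Kcne1 (-0.13), Klf15 (-0.19), Kcnj8 (0.21), Irx3 (-0.22) and Kcnj5 (-0.0727). In the 7 animals with Y-linked counts they turned for Kcnh2 (-0.0562), Kcne1 (-0.22), Klf15 (-0.44), Nfatc3 (0.0106) and Flna (-0.16). Library totals turned Nkx2-5 (0.0641), Mef2d (0.0392), Tbx5 (0.0255) and Nfatc3 (0.0167), and upper quartiles Kcne1 (-0.0013) and Akap9 (-0.0088). The replicate block turned Nkx2-5 (0.0055) and Klf15 (-0.0617), voom Nkx2-5 (0.054) and Klf15 (-0.0217), and the atrial covariate Klf15 (-0.15). Without single animals the values ran from -0.0859 to 0.17 for Kcnh2, -0.0075 to 0.0783 for Dlg1, -0.0685 to 0.18 for Kcne1 and -0.10 to 0.12 for Nkx2-5. They ran from -0.0657 to 0.13 for Akap9, -0.18 to 0.016 for Tbx5, -0.30 to 0.15 for Klf15 and -0.0606 to 0.17 for Flna. A filter at 5 CPM left Kcnd3 and Dlg3 untested. Depth limits Kcnd3, with 31 to 140 counts per heterozygote and 33 to 48 per knockout.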

Other observations

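Scaffold and trafficking partners of potassium channels were a further list, with 16 tested genes, of which 5 rose and 0 fell (31.2%, against 18.9% of all genes). Fhl1, a LIM-domain protein reported to act on Kv1.5, was higher, at 96.2 ± 12.3 and 299 ± 127 CPM (SD, n = 5), with 518 CPM in knockout 1. By edgeR the log2 fold change was 1.64 (adjusted p 0.000147, SE 0.217). Cttn, which encodes the actin-binding protein cortactin, was at 99.2 ± 1.99 and 154 ± 13.4 CPM (log2 fold change 0.63, adjusted p 0.000164). Ank3 (ankyrin-G, log2 fold change 0.51, adjusted p 0.00482) and Kif5b (a kinesin motor that carries Kv1.5, 0.41, 0.0160) also rose. With the endothelial covariate the values were 0.44 for Ank3 and 0.42 for Kif5b, with larger SEs, and both calls were lost (adjusted p 0.0769 and 0.0942). That of Kif5b was also lost without knockout 3 (0.36, adjusted p 0.0503) and in the animals with Y-linked counts (0.36, 0.119). Dlg3 went from 2.34 ± 0.475 to 3.86 ± 0.929 CPM (0.73, adjusted p 0.0459), a call that held in 2 of the 10 fits without 1 animal and in 4 of 11 other settings. Dlg1 (SAP97, log2 fold change 0.04, adjusted p 0.834), Cav3 (caveolin-3, -0.17, 0.307), Akap9 (0.02, 0.946), Nedd4l (0.10, 0.628), Flna (0.06, 0.870), Ank2 (-0.10, 0.642) and Rab11a (-0.13, 0.546) did not pass.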
